A study of Homo sapiens with 6 samples.

Results

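The RNA of control ME-180 cells was compared with that of vector SiHa cells. Both are human cervical carcinoma lines, the first described as high and the second as low in the transcription factor p63. The ME-180 library came from cells labelled as the knockdown control (vector plko), and the SiHa library from cells labelled vector, the control of an overexpression experiment. These are 2 of the 6 libraries of the series, which also holds ME-180 cells labelled p63 knockdown, SiHa cells overexpressing p63, a p63 chromatin immunoprecipitation from ME-180 and its input. All libraries were at passages 13 to 15, SiHa was grown in DMEM and ME-180 in McCoy's 5A medium, and each group had 1 library. Line, medium, vector, library and table therefore cannot be told apart in any difference given here, and no p-value is given, since none can be computed between single libraries. Genes entered through transcripts with a row in both deposited count tables: 13206 transcripts of the 15189 in the ME-180 table and the 16600 in the SiHa table. They gave 7587 genes of 10661 names found in either table, and a gene without a row in both was not read as unexpressed.

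p63, the product of TP63 and a relative of p53, is found in basal cells of stratified squamous epithelium. There it holds cells in the keratinocyte lineage and binds near genes of basal keratins, hemidesmosomes and desmosomes. Cervical squamous carcinomas commonly keep this programme to differing degrees. NF-kB is a transcription factor family that switches on cytokines and chemokines such as IL6 and CXCL8 after binding the kappaB motif in their promoters. Both lines carry integrated papillomavirus, whose E6 protein sends p53 to degradation.

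The promoters of 2 marker genes show the sequence context of the contrast, with 250 bases before and 50 after the annotated start. KRT5, a basal keratin, was the gene with the largest ratio in favour of ME-180. Its promoter, chr12:52520345-52520644 on the minus strand (RefSeq, GRCh38.p14), holds 1 p53-family half-site with a CATG core, in capitals, beginning 97 bases before the start.

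KRT5: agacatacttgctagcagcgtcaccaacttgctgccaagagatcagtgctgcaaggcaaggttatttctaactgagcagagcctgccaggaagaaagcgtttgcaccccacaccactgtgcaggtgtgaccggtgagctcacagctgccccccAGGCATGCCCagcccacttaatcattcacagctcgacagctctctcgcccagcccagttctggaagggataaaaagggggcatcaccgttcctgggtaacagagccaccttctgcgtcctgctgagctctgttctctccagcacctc

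IL6, an inflammatory cytokine, had counts in SiHa and none in the ME-180 control. Its promoter, chr7:22726950-22727249 on the plus strand, holds 1 kappaB motif (GGGNNTTTCC, in capitals), beginning 73 bases before the start.

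IL6: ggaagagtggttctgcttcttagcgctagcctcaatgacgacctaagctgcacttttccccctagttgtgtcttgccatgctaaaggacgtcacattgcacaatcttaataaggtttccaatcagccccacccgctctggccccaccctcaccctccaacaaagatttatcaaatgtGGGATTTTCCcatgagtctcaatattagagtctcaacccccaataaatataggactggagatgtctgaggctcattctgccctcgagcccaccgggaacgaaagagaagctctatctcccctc

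Both motifs were searched on both strands of the same windows in the promoter table. The kappaB motif was found in 671 of 35116 promoters (1.91%) and in 9 of the 20 promoters at hand for the inflammatory list described further on. The p53-family half-site was found in 551 of the 35116 (1.57%) and in 2 of 6 promoters of the basal list, KRT5 and COL17A1. Of the 6 basal promoters 0 held the kappaB motif, and 0 of the 20 inflammatory promoters held the p53-family half-site. The inflammatory list was drawn up from cytokine and NF-kB genes, and the basal list from genes of the p63 programme. Their shares of motifs thus depend on how the genes were chosen and test nothing. A match is only a run of letters and says nothing about binding in these cells.

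The chemokine genes CXCL1, CXCL2 and CXCL3 have near-identical promoters, and their kappaB motifs, with 10 bases on either side, are set beside those of NFKB1 and BIRC3. The windows lie at chr4:73869304-73869333 (plus strand), chr4:74099254-74099283 (minus), chr4:74038749-74038778 (minus), chr4:102501300-102501329 (plus) and chr11:102317275-102317304 (plus).

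CXCL1: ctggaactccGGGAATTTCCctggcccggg
CXCL2: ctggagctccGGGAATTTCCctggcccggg
CXCL3: ctggagctccGGGAATTTCCctggcccggc
NFKB1: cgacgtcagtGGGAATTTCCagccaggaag
BIRC3: tttgggtcatGGAAATCCCCgagtgggttt

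The first 3 genes were lower in the ME-180 control than in SiHa (log2 ratios -2.58, -3.30 and -2.51), NFKB1 lay short of 2-fold at -0.75, and BIRC3 was higher at 1.44. The 5 were picked as examples. Of the 9 list genes with the motif, 8 had a ratio below 0, 6 of them called lower, and BIRC3 was the 1 above 0. In the whole list, with or without the motif, 13 of the 20 genes tested were called lower, against 23.2% of all genes. The motif genes were thus lower about as often as their list.

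The joined transcripts held 10755728 counts in the ME-180 control and 9830403 in the SiHa vector library. They covered 99.6% of the counts in the ME-180 table's control column but 69.2% of those in the SiHa vector column. Rows missing from the ME-180 table followed the RefSeq accession number: in 1 band of 6-digit accessions it had 260 rows against 1322 in the SiHa table, but 982 against 942 in the band of lowest numbers (bands set after the tables were seen). Counts were scaled to a joined total of 1000000 (CPM). A ratio is the log2 of CPM + 1 in ME-180 over SiHa, taken from the transcript with the highest summed CPM per gene, and a 95% interval of a fold covers counting error only. To be called, a gene had to differ 2-fold or more and to reach 1 CPM in either library.

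TP63 counts had the order that the description of the lines as p63-high and p63-low implies. Its transcript for the delta N alpha protein, NM_001114980.1, had 5619 counts in the ME-180 control and 7 in the SiHa vector library, or 522 against 0.712 CPM. That is a 734-fold higher level in ME-180 (95% interval 356 to 1826). The other 4 TP63 transcripts gave the same order. The delta N beta transcript NM_001114981.1 had 5322 against 8 counts, and NM_001114978.1 had 5199 against 7. The gamma transcripts had 510 counts against 0 (NM_001114982.1) and 393 against 1 (NM_001114979.1). Reads from shared exons can enter several of these rows, so the rows are not independent. With p63 overexpressed, SiHa had 179 counts of NM_001114980.1 (19.0 CPM), still far under the ME-180 control, and the ME-180 library labelled knockdown had 6. The paralog TP73 was also higher in ME-180, with 198 counts against 14 (12.9-fold, 7.52 to 24.1).

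Among the 7587 genes, 6314 had at least 1 CPM in either library and 1273 did not. Of the 6314, 1053 were at least 2-fold higher in ME-180 (16.7%), 1462 at least 2-fold lower (23.2%) and 2515 either (39.8%). The shares of 16.7% and 23.2% are the background for every list count given below. The lists were chosen with earlier results of these data known, so setting their counts against these shares describes them and tests nothing. The lower side was the larger at 2-fold, but at 4-fold 476 genes were higher and 421 lower, and at 32-fold 69 were higher and 37 lower. The median ratio of the 6314 genes was -0.25, and the split depends on scaling. Scaling by trimmed means (TMM), which moves the median up by 0.22, gave 1265 higher and 1156 lower, or 52.3% higher among those called in place of 41.9%. Scaling to all rows of each table, a shift of 0.52, gave 1583 higher and 779 lower (67.0%). At the extremes, 65 genes had at least 100 counts in ME-180 and 3 or fewer in SiHa, and 46 the reverse.

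**Figure D1:**
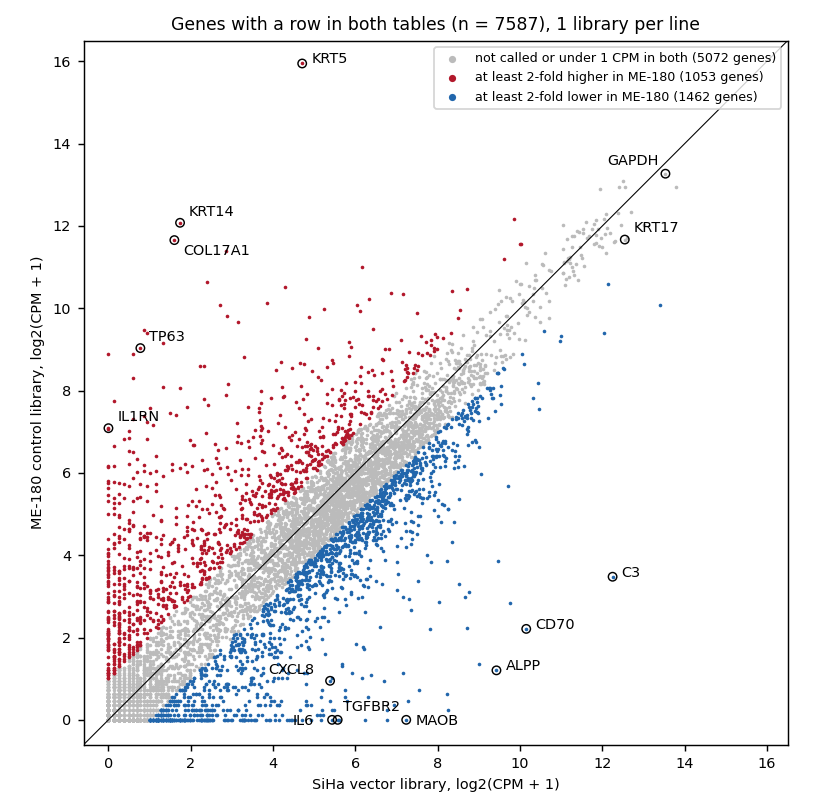
Each point is 1 of 7587 genes, with log2(CPM + 1) in the SiHa vector library on the x axis and in the ME-180 control on the y axis; red and blue mark genes at least 2-fold higher (1053) or lower (1462) in ME-180, and the line marks equal levels. KRT5, KRT14 and COL17A1 stand far above the line, C3, CD70 and ALPP far below it, and KRT17 lies just below it among the abundant transcripts.

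KRT5 took 6.32% of all joined counts of the ME-180 control and 0.00251% of those of SiHa, with 679522 counts against 247. The level was 63178 against 25.1 CPM, a 2514-fold difference (2220 to 2860). GAPDH, second in share in ME-180, took 0.987% there and 1.19% in SiHa. In SiHa the largest share was that of the actin gene ACTB, at 1.41% against 0.788% in ME-180. FTL, the ferritin light chain, took 1.08% of the SiHa counts and 0.108% of those of ME-180 (9.99-fold lower in ME-180, 9.80 to 10.2). No gene of the SiHa library took a share of its counts as large as that of KRT5 in ME-180.

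Of 27 genes listed as basal squamous keratins and adhesion genes, 10 had rows in both tables and all 10 reached 1 CPM. Of these, 8 were higher in ME-180 and 0 lower, where 16.7% of all genes were higher, and their median ratio was 3.21 against -0.25 over all genes. KRT14, the pairing partner of KRT5, had 46445 counts against 23, 1846-fold higher (1230 to 2912). COL17A1, the transmembrane collagen of hemidesmosomes, had 34700 counts against 20, and ITGB4, the hemidesmosome integrin, 8658 against 78 (101-fold, 81.2 to 128). The laminin chains LAMA3 (ratio 3.81) and LAMB3 (1.92), which form the anchoring laminin of the basement membrane, and the integrin ITGA6 (2.18) were higher by less. PLEC, the plectin gene, lay at -0.76. A gene at 0 in 1 library enters such a count only where the other library is high, so counts and medians of lists describe these libraries and no more.

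KRT17, a keratin of basal and stressed squamous cells given as a marker of the contrast, did not follow KRT5 and KRT14. It had 35001 counts in the ME-180 control and 58740 in the SiHa vector library, or 3254 against 5975 CPM. SiHa was 1.84-fold higher (1.81 to 1.86), short of the 2-fold rule, and the ratio stayed below 0 under every scaling tried. In the p63-overexpressing SiHa library it was at 12807 CPM, and in the ME-180 library labelled knockdown at 8.49 CPM. KRT14 and KRT17 are close relatives in sequence, so some of their counts could be exchanged. The markers KRT15, DSC3, DSG3 and PERP had no row in both tables and were not measured. The p63-low line was thus low in KRT5, KRT14 and COL17A1 but not in KRT17.

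KRT8 and KRT18, keratins of simple epithelium, differed by less than 2-fold between the lines. KRT8 had 1915 CPM in ME-180 and 1723 in SiHa (ratio 0.15). Its partner KRT18 had 807 against 1441 (-0.84), 1.79-fold higher in SiHa (1.74 to 1.84). In the list of simple epithelial and glandular genes, 8 of 21 had rows, 7 reached 1 CPM, 2 were higher, 1 was lower, and the median was 0.13. The gene on the lower side was MUC1, a transmembrane mucin, with 11 counts against 413 (41.1-fold lower in ME-180, 22.7 to 82.9). CLDN3, a tight junction claudin (2.25), and ANXA4 (2.13) were higher in ME-180.

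Cell junction genes were higher in ME-180 or short of 2-fold. Of 25 desmosome and junction genes, 11 had rows and 11 reached 1 CPM, and 9 of these were higher and 0 lower, with a median of 3.27. The connexin GJB6 had 5051 counts against 5 (923-fold, 395 to 2845). PKP1, a plaque protein of desmosomes, had 9585 against 63, and DSP, the desmoplakin that ties the plaque to keratin, 11675 against 637. The claudin CLDN7 (5.48), the gap junction gene GJA1 (3.27) and PKP2 (3.08) were on the same side, while PKP4 was at -0.01 and CTNND1, p120 catenin, at 0.81.

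Genes of squamous differentiation leaned the same way. Of 40 listed, 16 had rows and 15 reached 1 CPM, with 12 higher, 1 lower and a median of 2.33. TGM1, the transglutaminase that crosslinks the cornified envelope, had 11723 counts against 54 (198-fold, 152 to 264). The kallikrein proteases KLK11, with 2301 counts against 1, and KLK10, with 2926 against 15, were among the widest. ANXA1 had 4607 against 918 CPM, and KRT10, a keratin of suprabasal layers, had a ratio of 1.32. SERPINB4 was the member on the lower side, with 4 counts against 22, and SPINK5 (-0.71) and CSTB (-0.62) lay short of 2-fold on that side.

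Epithelial transcription factors other than TP63 differed as well. The list of 27 had 11 with rows and 10 at 1 CPM or more, with 9 higher, 1 lower and a median of 3.79, TP63 included. ESRP1, a splicing regulator of epithelial cells, had 902 counts against 12 (68.7-fold, 39.1 to 133). The ETS factors EHF (4298 against 257) and ELF3 (4952 against 554) were present in both lines but higher in ME-180. GRHL3, a barrier formation factor, had 128 counts against 0, at least 39.0-fold higher against a floor of 3 counts (lower 95% limit 31.3). TFAP2A, an AP-2 factor of ectoderm, went the other way with 264 against 817 counts (-1.72). In the ME-180 library labelled knockdown EHF, ELF3 and ESRP1 had 0 counts, so for these 3 genes SiHa lay between the ME-180 libraries.

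The 12 highest genes with at least 100 counts included 7 outside the lists above, apart from TP63, KRT5, KRT14, COL17A1 and GJB6. KAL1, which encodes a secreted matrix protein, had 5096 counts against 0, at least 1553-fold higher (lower 95% limit 1262). GPNMB, a glycoprotein of lysosomes and melanosomes, had 7576 against 8, and ZBTB7C, a zinc finger factor, 28993 against 61. COL5A2, a fibrillar collagen chain, had 17062 against 42 (371-fold, 275 to 515). FXYD3, a regulator of the sodium pump, had 6175 against 15, and ARHGDIB, an inhibitor of small GTPases, 3415 against 5. MIR205HG, the host transcript of miR-205, a microRNA of squamous epithelium, had 7291 counts against 9 (740-fold, 390 to 1620). The mature microRNA itself was not measured in these libraries. Its sequence (RefSeq, chr1:209432166-209432187, plus strand) is given with the seed, bases 2 to 8, in capitals.

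hsa-miR-205-5p: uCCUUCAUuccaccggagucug

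All 12 of these genes were low in the library labelled knockdown as well, none above 160 counts except KRT5 with 239. That library shares its control with this comparison, so the values stand side by side and are not separate support.

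**Figure D2:**
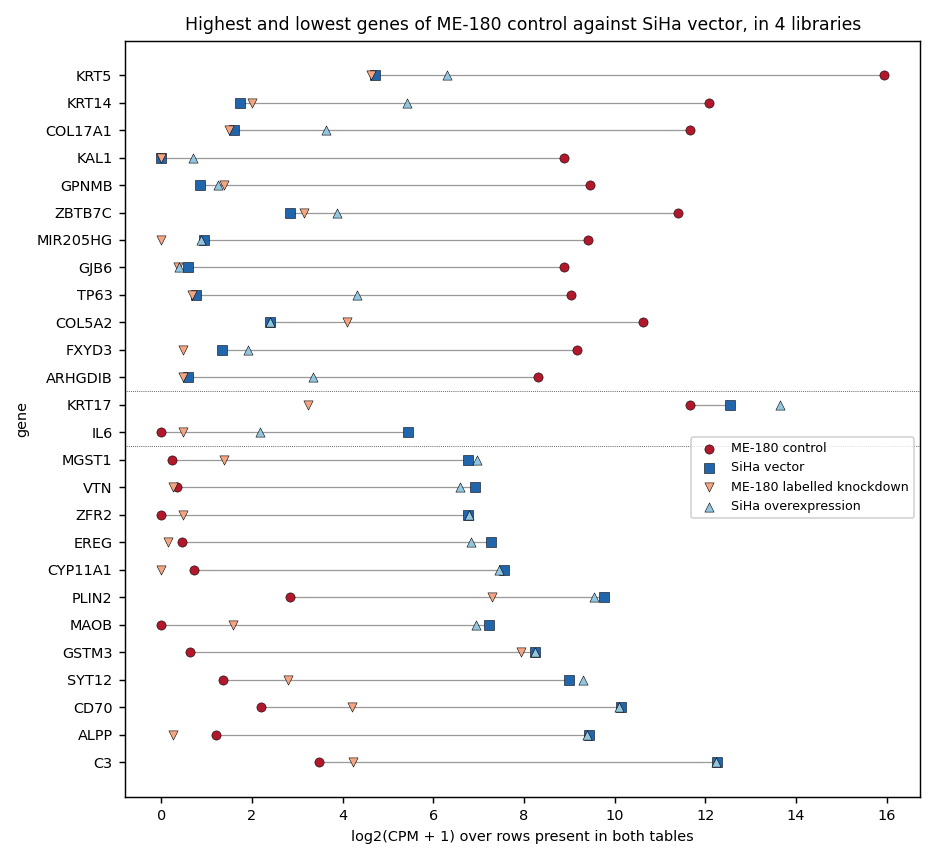
Log2(CPM + 1), on the x axis, of the 12 highest and 12 lowest genes and of KRT17 and IL6 (y axis) in 4 libraries, with a grey line joining the ME-180 control (circle) to the SiHa vector library (square). Triangles give the other libraries: for the 12 lowest genes the overexpression library lies near the SiHa vector square, while GSTM3 and PLIN2 in the library labelled knockdown lie toward SiHa.

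The 12 lowest genes in ME-180 came from several functions. C3, the central complement component, had 109 counts in the ME-180 control and 47842 in the SiHa vector library, or 10.1 against 4867 CPM (480-fold, 398 to 585). ALPP, placental alkaline phosphatase, had 14 against 6757, although its near-identical relatives could share reads. CD70, a ligand of the tumour necrosis factor family, had 39 against 11164 (313-fold, 229 to 441), and SYT12, a synaptotagmin, 17 against 5007. MAOB, the mitochondrial monoamine oxidase B, had 0 against 1471 counts, at least 536-fold lower (lower 95% limit 436). ZFR2 had 0 against 1061, at least 387-fold lower (lower 95% limit 314). Of other enzymes in this group, CYP11A1, which starts steroid synthesis from cholesterol, had 7 against 1832. The glutathione enzymes GSTM3 and MGST1 had 6 against 2951 and 2 against 1064. PLIN2, the coat protein of lipid droplets, had 66 against 8531. EREG, the growth factor epiregulin, had 4 against 1504 counts, and VTN, vitronectin, 3 against 1189 (434-fold, 148 to 2106).

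Of these 12, GSTM3 and PLIN2 were also raised within ME-180, with 2457 and 1559 counts in the library labelled knockdown. The other 10 had 178 or fewer counts there. All 12 had a CPM in the overexpression library between 0.742 (EREG) and 1.23 (SYT12) times that of the SiHa vector library. Both of those libraries share a control with the comparison of the lines.

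The inflammatory list was mostly on the SiHa side. Of 33 cytokine and NF-kB genes, 23 had rows and 20 reached 1 CPM, with 13 lower in ME-180, 4 higher and a median of -1.50, where 23.2% of all genes were lower. IL6 had 0 counts in the ME-180 control and 415 in the SiHa vector library, at least 151-fold lower (lower 95% limit 123). PTX3, a pentraxin induced in inflammation, had 0 against 344 (at least 125-fold, lower 95% limit 101), and CXCL8, a neutrophil chemokine, 10 against 401 (43.9-fold, 23.6 to 92.2). ICAM1, an adhesion receptor for leukocytes, had 163 against 2085 counts. The neutrophil chemokines CXCL1, CXCL2 and CXCL3 had 9, 0 and 0 counts against 98, 87 and 46, and their close sequences could share reads. The subunit gene NFKB2 (-1.38) and the feedback inhibitor TNFAIP3 (-1.35) were lower by less.

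The 4 members higher in ME-180 were BIRC3 and 3 interleukin-1 genes. IL1RN, the antagonist of the interleukin-1 receptor, had 1451 counts in ME-180 and 0 in SiHa, at least 442-fold higher (lower 95% limit 359). IL1A had 248 counts against 27 (8.39-fold, 5.63 to 13.0) and IL1B 116 against 21 (5.05-fold, 3.15 to 8.46). The antagonist and both agonists were therefore on the ME-180 side, and IL6 and the CXCL chemokines on the SiHa side. In the SiHa library with p63 overexpression, IL6 had 33 counts, CXCL8 had 2 and ICAM1 had 2328, beside 415, 401 and 2085 with the vector.

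Interferon-induced genes were divided: of 13 with rows (40 listed), 5 were higher, 2 lower and 6 neither, with a median of 0.61. Shares over all genes were 16.7% higher and 23.2% lower. OAS1, a sensor of viral RNA, had 254 counts against 38, and IFI6 186 against 1474. Antigen presentation genes differed by class. Among 12 with rows (20 listed, 11 at 1 CPM or more), 2 class I genes were higher, among them HLA-C (2.11), and 6 class II pathway genes were lower. HLA-DQB1 had 0 counts in ME-180 against 140 in SiHa, CD74, the invariant chain, 6 against 44, and CIITA, the master regulator of class II genes, 21 against 66. CIITA was short of 2-fold, at -0.94, when scaled to all rows of each table. HLA genes are close relatives and highly variable in sequence, so their counts are uncertain. The median of the list, -1.05, turned to 0.38 when scaled to all rows of each table, with 2 genes lower in place of 6.

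**Figure D3:**
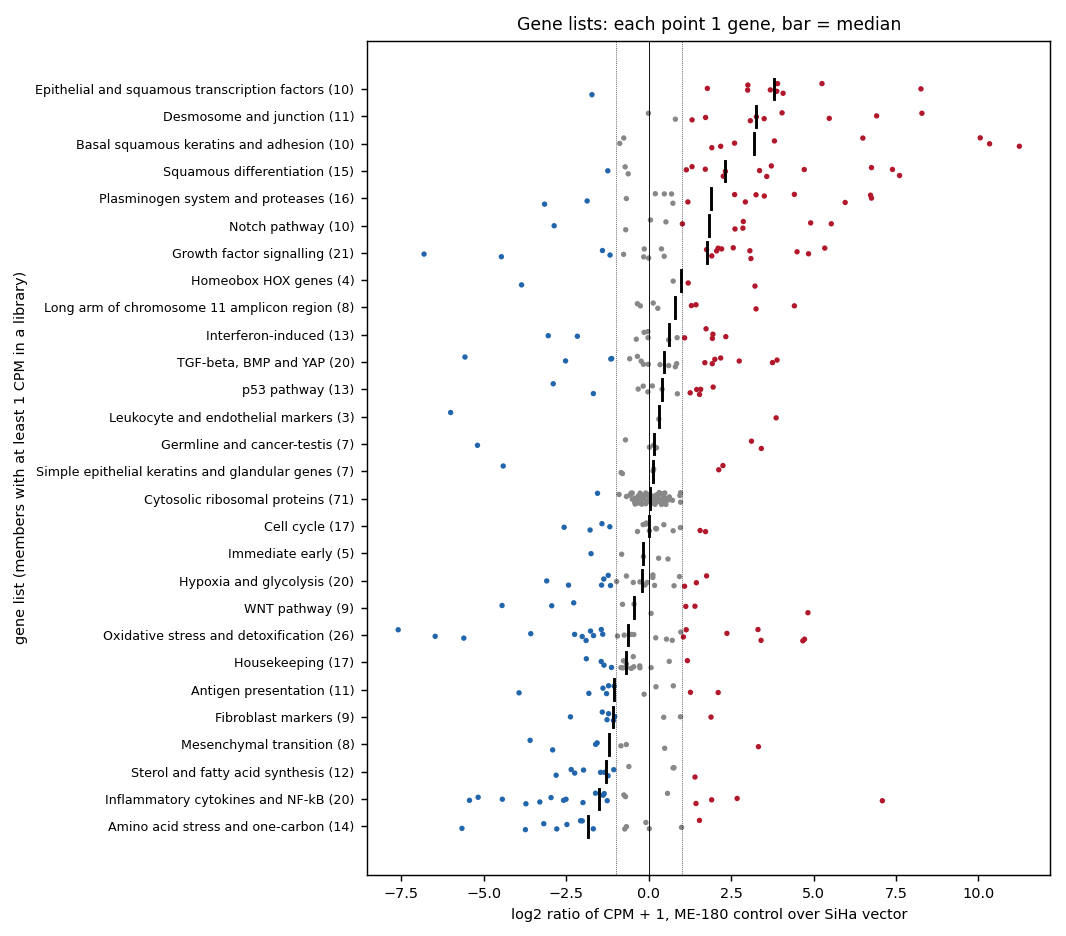
Log2 ratio of CPM + 1, ME-180 control over SiHa vector (x axis), for each member with at least 1 CPM of the 28 gene lists (y axis, number of members in brackets); black bars are medians, dotted lines mark 2-fold, and red and blue points are genes called higher or lower in ME-180. The epithelial, junction and basal lists lie to the right, inflammatory, sterol and one-carbon lists to the left, and 70 of 71 ribosomal protein genes lie between the dotted lines.

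Markers of other cell types were low or mixed. Of the 12 leukocyte and endothelial markers, 9 had rows, 6 of these were under 1 CPM in both libraries, and the summed CPM of the 9 was 66.6 in ME-180 and 184 in SiHa. KDR had 0 counts in both, LYZ had 0 and 3, CD3E 2 and 4, and CDH5 1 and 4. CD14, a receptor for bacterial lipopolysaccharide, had 13 counts against 1384 (116-fold lower in ME-180, 67.9 to 219), and VWF 146 against 0. Of 10 fibroblast markers with rows (17 listed), 9 reached 1 CPM, 6 were lower and 1, COL1A1, higher, and their CPM summed to 195 in ME-180 and 270 in SiHa. POSTN had 0 counts in ME-180 against 1, PDGFRB 0 against 13, LUM 2 against 14 and COL3A1 9 against 28, while COL5A1 had 401 against 1937. Scaled to all rows, 2 fibroblast markers were higher and 1 lower, and with a pseudocount of 5 there was 1 on each side. The part of such cells in the results was not tested. The list of mesenchymal transition genes, 9 of 23 with rows, had 4 of 8 lower and 1 higher (median -1.20). Its median was smaller in size with TMM scaling (-0.99), with all rows (-0.68) and with a pseudocount of 5 (-0.88). The repressors ZEB1 and ZEB2, which silence cadherin and other epithelial genes, had single counts against 71 and 120, TWIST1 299 against 826, and TGFBI, a matrix protein, 6200 against 555 in the other direction.

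Growth factor pathways differed at the receptor and ligand level. Of 36 listed genes, 22 had rows and 21 reached 1 CPM, with 11 higher, 4 lower and a median of 1.75. Over all genes 16.7% were higher and 23.2% lower. The receptors FGFR2 (779 counts against 8), FGFR3 (4440 against 170) and IGF1R (3157 against 615) were higher in ME-180, and FGFR1 was lower with 70 against 185. ERBB2 was equal within counting error at 171 and 170 CPM (ratio 0.00). The insulin-like growth factor binding proteins split: IGFBP2 (4.85), IGFBP5 (3.10) and IGFBP3 (3.07) were higher, and IGFBP7 was lower with 3 counts against 268. Among ligands of the epidermal growth factor receptor, TGFA was higher (2.11), and EREG, given above, was 411-fold lower (160 to 1512).

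In the TGF-beta family, TGFBR2, a receptor needed for the signal, had 0 counts in the ME-180 control and 457 in SiHa, at least 167-fold lower (lower 95% limit 135). The other receptor chain TGFBR1 was higher in ME-180 (1659 against 391 counts), as were the ligands BMP2 (2.01), BMP4 (2.75) and TGFB1 (1.70) and the mediator SMAD3 (2.18). Of 20 genes with rows and at 1 CPM (34 listed), 7 were higher, 4 lower and 9 neither, with a median of 0.48. The lower count is near the 23.2% of all genes, and 16.7% of all genes were higher. CTGF, a target of this pathway and of YAP, was lower with 10 counts against 99, while YAP1 itself lay at -0.34. In the library labelled knockdown TGFBR2 had 69 counts.

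Notch genes were mainly on the ME-180 side. Of 10 with rows (25 listed), 6 were higher, 1 lower and 3 neither (median 1.82). The ligand JAG1 had 4861 counts against 86 (51.7-fold, 41.7 to 64.7) and the receptor NOTCH3 9437 against 277 (31.1-fold, 27.6 to 35.2). Of the targets, HES5 (2.62) and NRARP (1.02) were higher, HES4 lay at -0.70, and HEY1 was lower with 105 counts against 761. Ligand and receptor thus stood on the opposite side from HEY1.

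Proteases and their inhibitors followed the epithelial lists in part. The lists share members: KLK10 is also on the squamous differentiation list, and MMP13 on the chromosome 11 list given further on. Of 18 with rows (29 listed, 16 at 1 CPM or more), 9 were higher, 2 lower and 5 neither, with a median of 1.90. Among all genes 16.7% were higher and 23.2% lower. PLAU, the urokinase, had 1883 counts against 18 (95.6-fold, 60.3 to 162), and SERPINB2, one of its inhibitors, 1708 against 5. The urokinase receptor PLAUR went against its ligand, with 75 counts against 689 (10.1-fold lower, 7.91 to 12.9). MMP13 had 266 counts against 2 and MMP1 92 against 0, while the inhibitor TIMP3 was lower at 202 against 739 CPM.

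Detoxification genes differed in both directions. Of 41 listed, 27 had rows and 26 reached 1 CPM, with 7 higher, 11 lower and a median of -0.64. For all genes the shares were 16.7% higher and 23.2% lower. The aldehyde dehydrogenases ALDH3A1 (10815 counts against 364), ALDH1A1 (795 against 19) and ALDH1A3 (10137 against 1780) were higher in ME-180, as was GCLC, which limits glutathione synthesis (4582 against 412). NQO1, a quinone reductase and classic NRF2 target, was lower at 637 against 2031 CPM, as was TXNRD1, a thioredoxin reductase (-1.90). AKR1C3, an aldo-keto reductase, had 40 counts against 4112 and CYP1B1, a monooxygenase, 145 against 6921. The AKR1C genes, and GSTM1 to GSTM4, are close copies, and reads could be split among them. Of the mu class glutathione transferases, GSTM1 (-2.02), GSTM2 (-3.58) and GSTM3 were lower in ME-180, but GSTM4 lay at 0.54. GSTP1, of the pi class, was just short of the rule at 0.97.

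Of 12 sterol and fatty acid synthesis genes with rows (26 listed), 8 were lower in ME-180 and 1 higher (median -1.29), where 23.2% and 16.7% of all genes were. Scaled to all rows of each table, 4 were lower and 3 higher. LSS, lanosterol synthase, had 245 counts against 1624, and DHCR7, the last enzyme of cholesterol synthesis, 440 against 2089. The lipid synthesis regulator SREBF1 was higher at 992 against 374 CPM. Of 14 amino acid stress and one-carbon genes (28 listed), 8 were lower and 1 higher, with a median of -1.85. CBS, an enzyme of transsulfuration, had 82 counts against 4281 (57.1-fold lower, 45.9 to 72.0), and ALDH1L2, a mitochondrial folate enzyme, 4 against 170. In the ME-180 library labelled knockdown CBS had 7255 and ALDH1L2 2501 counts, above either line's control.

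Lists of general functions held genes on both sides. Of 17 cell cycle genes with rows (36 listed), 2 were higher, 4 lower and 11 neither (median 0.02), near the 16.7% and 23.2% of all genes. The split was 3 and 3 with TMM scaling or DESeq2 size factors, and 4 higher and 2 lower with all rows. TOP2A, the topoisomerase of dividing cells, was higher (1.56) and CCNE1, cyclin E, lower (-2.56), while MKI67 lay at 0.46. CDKN2A, an inhibitor of cell cycle kinases, had 159 against 362 CPM. Of 13 p53 pathway genes (26 listed), 5 were higher, among them CDKN1A (1.46) and DDB2 (1.58), and 2 lower, among them BBC3 (-1.68). Among 20 hypoxia and glycolysis genes (32 listed), 3 were higher and 6 lower (median -0.19), with CA9, a carbonic anhydrase, at 196 counts against 1601, and NDRG1 at 15230 against 4116. The hypoxia median turned above 0 with TMM scaling (0.03) and with all rows (0.34), where 5 genes were higher and 2 lower. Of 71 ribosomal protein genes measured (76 listed), 70 lay within 2-fold, with a median of 0.04 (0.25 with TMM scaling). With TMM scaling 3 of them were past 2-fold on the ME-180 side, and with all rows 12. Of 17 housekeeping genes, 1 was higher, 4 lower and 12 within 2-fold, with a median of -0.67, and with all rows 2 were higher and 1 lower.

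RPL13, the 1 ribosomal protein gene called, had 16611 counts against 44503 (-1.55). With the joined totals as scaling, it lies within the longest run of neighbouring genes called in the same direction. Gene order came from the RefSeq table, which placed 6207 of the 6314 genes (98.3%), and runs were picked by their ratios, so their lengths are a description. From BANP to DBNDD1, 18 consecutive tested genes were lower in ME-180, each by at least 2-fold, with ratios from -3.48 to -1.12 and a median of -1.81. Their summed level was 3340 CPM in ME-180 and 12966 in SiHa. The run includes CYBA, a subunit of the phagocyte oxidase (7244 counts against 41165), the mechanosensitive channel gene PIEZO1 (2402 against 12487), TUBB3, a beta tubulin (367 against 2996), the nucleotide salvage enzyme APRT (2555 against 7167) and the DNA repair gene FANCA (1014 against 2518). With TMM scaling or DESeq2 size factors ANKRD11 lay at -0.90 or -0.93, which parts this run into 9 and 8 genes, shorter than the run of 12 described last. In the library labelled knockdown the sum was 5324 CPM, and with overexpression in SiHa 14281 CPM.

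A second run of 13 genes from NOS3 to CNPY1 was lower in ME-180 as well, with a median of -2.04 and a summed level of 293 against 1331 CPM. FASTK, within this run, lay at -0.90 with TMM scaling and -0.93 with DESeq2 size factors, so the run is parted there too. The run holds NUB1 (663 counts against 5197), CDK5, a kinase of neurons (111 against 794), and the ion exchanger SLC4A2 (514 against 1960). Immediately outside it, LRRC61 (-3.27) and REPIN1 (-1.28) were lower too, with KCNH2 (0.11) between them and the run.

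The longest run on the other side had 12 genes from TMEM2 to VPS13A, all higher in ME-180, with a median of 2.28 and a summed level of 6013 against 1135 CPM. ANXA1 and ALDH1A1, described above, belong to it, as do GDA, guanine deaminase (2737 counts against 118), PCSK5, a proprotein convertase (2431 against 143), and GCNT1, a glycan branching enzyme (739 against 23). Before it in the gene order, FAM189A2 (4.28), APBA1 (5.64) and PTAR1 (1.39) were also higher, separated from the run by KLF9 (0.08). In the library labelled knockdown the summed level of the 12 genes was 288 CPM, ANXA1 having 187 counts. With the joined totals as scaling, shorter runs were common: 3 had 8 genes and 4 had 7, all of them lower in ME-180. Scaled to all rows of each table, 12 of the 18, 10 of the 13 and 12 of the 12 genes of the 3 longest runs were called.

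**Figure D4:**
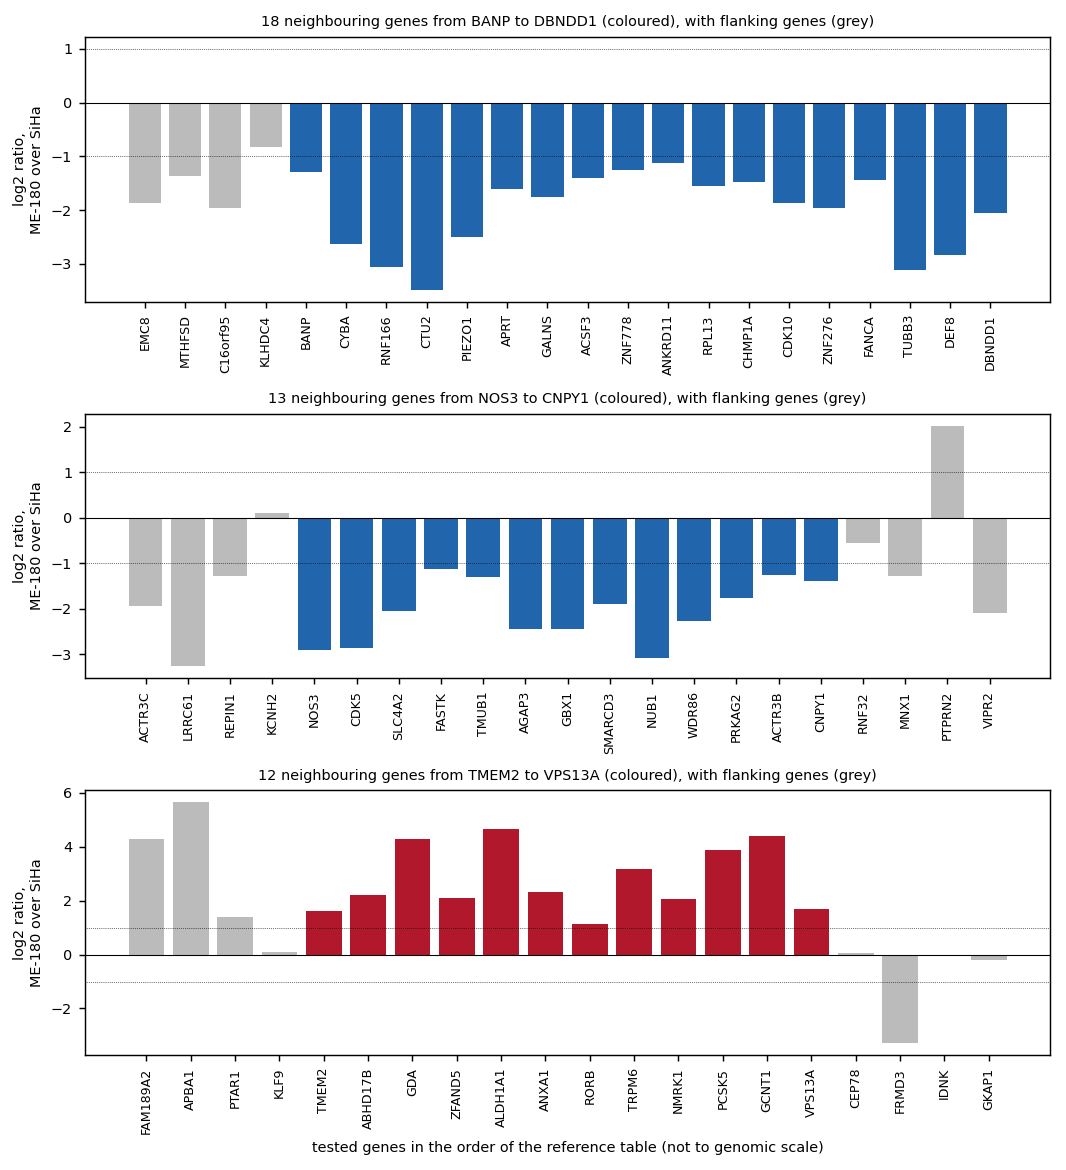
Bars give the log2 ratio of ME-180 over SiHa (y axis) for neighbouring tested genes in the order of the reference table (x axis, not to scale) in the 3 longest runs, coloured, with flanking genes in grey and dotted lines at 2-fold. All 18 genes from BANP to DBNDD1 and all 13 from NOS3 to CNPY1 lie below -1, and all 12 from TMEM2 to VPS13A above 1, while flanking genes vary in sign beside the second and the third run.

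Transcripts of 1 gene seldom disagreed. Of 1767 genes with at least 2 transcripts at 100 or more counts in a library, 0 had one transcript called higher and another lower, and the same held for 2126 genes at 30 counts. Transcripts share reads, which limits how far they can part. The widest gap after TP63 was in INTS6, a subunit of the Integrator complex. Its transcript NM_001039937.1 had 293 counts against 434 (-0.68), and NM_001039938.1 had 39 against 380 (-3.10). For CD44, a hyaluronan receptor, NM_001001389.1 had 2828 counts against 417 (2.60) and NM_001202557.1 had 205 against 104 (0.79). All 8 CD44 transcripts with at least 100 counts in a library had positive ratios, of differing size.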

How the data were processed

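RNA was measured in 4 libraries, of which the ME-180 control and the SiHa vector library were compared. The authors deposited 1 table per line with whole-number read counts per RefSeq transcript. Per the submitters' processing notes, the tools were TopHat, Cufflinks and DESeq2 on build hg19, listed with no version or role. How reads were counted, and with which strand setting, is not given in the sources used here. Without a strand setting, overlapping and antisense genes cannot be told apart.

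The tables were joined on the transcript identifier, and 26 spreadsheet dates were replaced by gene names through it. Counts were scaled to the joined total (CPM), 1 transcript per gene was kept, and log2 ratios of CPM plus a pseudocount of 1 were taken in Python 3.11.15 (pandas 2.3.3, scipy 1.17.1). Intervals of count ratios are exact 95% conditional binomial ones for counting error. A count of 0 was set to 3 counts per library for a fold (0.279 CPM in ME-180, 0.305 in SiHa). TMM factors came from edgeR 4.0.16 and size factors from DESeq2 1.42.0, in R 4.3.3, for scaling only. The rule for calling genes was tested on simulated counts with counting error only. The lists, runs, motif search and transcript comparison were not tested in this way.

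Named genes were TP63, KRT5, KRT17 and IL6, the 12 highest and 12 lowest ratios at 100 counts or more, up to 5 per list, list members against the list median, the largest shares of counts, and genes of the longest runs. Other members are named as examples chosen after their values were seen. The members and the 28 gene lists were chosen with earlier results of these data known. Alternatives were pseudocounts of 0.1 and 5, floors of 0 and 5 CPM, a 4-fold rule, 3 other scalings and the mean over transcripts. The deposited p-values and fold changes and the peak list were not used here.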

Additional observations from a re-analysis of the deposited data

How the results depend on the processing

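With CPM taken over all rows, 1583 genes were higher and 779 lower, antigen presentation had 2 members lower and a median of 0.38, and fibroblast markers had 1 lower, cell cycle 2, hypoxia 2, sterol synthesis 4 and housekeeping 1. The run from NPW to ABCA3 then had 4 of 8 genes called, in an alternative chosen after seeing the data. A pseudocount of 5 gave 963 genes lower, 3 interferon-induced genes higher, 1 antigen presentation gene and 1 fibroblast marker lower, and 1 HOX gene higher. The 4-fold rule gave 476 higher and 421 lower, by its construction. With TMM scaling, DESeq2 size factors, the mean over transcripts, no floor or a pseudocount of 0.1, the counts of the 28 lists in their leading direction stayed within 1.5 times. Of 224 named genes, 0 called ratios changed sign under any of these settings, and 25 dropped under 2-fold with all rows, 20 with a pseudocount of 5, 6 with TMM scaling and 4 with DESeq2 size factors. In the all-rows setting the totals also hold rows found in 1 table only. Joined rows made up 99.6% of the ME-180 control counts but 69.2% of the SiHa vector counts. That setting therefore lowers CPM more in SiHa than in ME-180 by its construction. The cause of the other shifts was not tested. Counts of 1 to 3, as for KLK11 in SiHa or MGST1 in ME-180, leave wide intervals. No paired analysis was possible because each group has 1 library and the labels give no replicate numbers.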

Other observations

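Lists outside the main contrasts held single genes with large ratios. Of 39 HOX genes, which set position along the body axis, 4 had rows. HOXD13 had 85 counts in the ME-180 control and 1256 in the SiHa vector library (16.2-fold lower, 13.0 to 20.4), HOXA13 went the other way with 1061 against 95 (10.2-fold, 8.27 to 12.7), and HOXC12 had 127 against 45. The 2 genes of the same paralog group were thus on opposite sides. Among 10 germline and cancer-testis genes with rows (34 listed, 7 at 1 CPM or more), LIN28B, which blocks maturation of let-7 microRNAs, had 2 counts against 416, and 1981 in the ME-180 library labelled knockdown. IGF2BP2, an RNA-binding protein, had 1494 against 119, while its relative IGF2BP1 lay at -0.70. The copies MAGED4 and MAGED4B, near-identical in sequence, lay at 0.24 and 0.15.

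WNT genes were divided at the level of secreted proteins. Of 9 with rows (38 listed), 3 were higher and 3 lower, where 16.7% and 23.2% of all genes were. The ligand WNT5A had 391 counts against 2806 (7.85-fold lower, 7.06 to 8.75) and the secreted inhibitor SFRP1 3 against 264, while another secreted inhibitor, DKK3, had 1197 against 29 (37.7-fold higher, 26.1 to 56.6). In a region of the long arm of chromosome 11 that is amplified in some squamous carcinomas, 13 of 23 listed genes had rows and 8 reached 1 CPM. CASP1 (1.30), MMP13, MMP1 and BIRC3 were higher, while the commonly named genes of that region, BIRC2 (-0.25) and YAP1 (-0.34), lay short of 2-fold. Of 5 immediate early genes at 1 CPM or more (19 listed), NR4A1 was lower (-1.75) and 4 lay within 2-fold.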
